A study of Mus musculus with 6 samples.

Results

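Transcripts of 10 genes of the nuclear lamina and of the complex that links it to the cytoskeleton were compared between control and ETV4 KO 4T1 cells grown in collagen I gels. The genes were found by symbol in the deposited count table (Lmna, Lmnb1, Lmnb2, Lbr, Emd, Sun1, Sun2, Lemd2, Lemd3 and Ankle2), all 10 among its 31017 symbols, and all 10 passed the low-count filter that left 12076 genes for testing. In ETV4 KO cells 5 were higher (Lmnb1, Sun1, Sun2, Lemd2 and Ankle2), 3 were lower (Lmna, Lmnb2 and Lemd3), and Lbr and Emd passed the test in neither direction. A gene was called at an edgeR adjusted p under 0.05, a threshold that 71.1% of all genes tested passed, 35% higher and 36% lower. That 8 of 10 were called is therefore near the background. In the same 8 genes the values of the groups did not overlap, as in 72.7% of all genes tested (36.1% with ETV4 KO above and 36.6% with ETV4 KO below). Sizes were modest: Lemd2 had the largest difference of the 10 at 1.57-fold, and the ratio of Lmna to Lmnb1 counts fell from 12.9 to 10.1. With the medians of neighbouring genes in 10 Mb bins taken out, the difference of this ratio reversed in sign. In that setting 5 of the 10 genes were called higher, Lmna among them, and 2 lower. Of all genes tested, 30.5% were called higher and 34.2% lower in that setting.

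The nuclear lamina is a meshwork of intermediate filament proteins under the inner nuclear membrane. A-type lamins (lamin A and lamin C, both spliced from Lmna) stiffen the nucleus and are known to be more abundant in stiffer tissues, while B-type lamins (Lmnb1 and Lmnb2) stay farnesylated and anchored in the membrane. Inner membrane proteins such as the lamin B receptor and the LEM-domain proteins tie lamins and heterochromatin to the membrane. SUN proteins of the inner membrane bind nesprins of the outer membrane, and together they form the LINC complex, which carries force from actin and other filaments to the nucleus of a cell moving through matrix.

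4T1 is a mouse mammary carcinoma line. Cells of both groups received Cas9 with guide RNAs by nucleofection and were embedded in collagen I: the 3 control samples with control guides, and the 3 ETV4 KO samples with guides against the gene of the ETS factor ETV4. The gels were digested with collagenase before poly(A) RNA was sequenced. Of the collagen concentrations that the treatment protocol lists, the one used for these samples is not stated. All 3 ETV4 KO libraries carry the code c39, whose meaning the labels do not state, and no label says that replicates were separate cultures, so that a p-value here reflects the spread among these libraries alone, which may be technical.

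Libraries held 22355015 to 29042569 counts, and the 10 genes took 0.329% to 0.355% of them. Etv4 was lower in each ETV4 KO library, at 133.9 CPM ± 0.752 (SD, n = 3) in controls and 89.8 CPM ± 2.44 (SD, n = 3) in ETV4 KO. Its log2 fold change was -0.58 (SE 0.036) beside a median of -0.46 over 101 expressed genes around it on chromosome 11; where the guides cut is not stated in the labels, so that a transcript level does not test the loss of the protein. CPM here are library-size-scaled counts from edgeR with TMM factors. Of 11 mammary epithelial markers 9 were above 1 CPM, among them Krt8, Krt18, Epcam and Cdh1, and the summed level of the list was 5331 to 5470 CPM in controls and 3695 to 3842 CPM in ETV4 KO (marker sums use raw library sizes). Of these 9 markers 7 were called lower and 2, Krt19 and Cldn4, higher, where 36% of all genes tested were called lower and 35% higher. Log2 fold changes of the 9 were uneven, from -5.92 to 0.47, with a median of -0.42. Markers of other cells were low in both groups: fibroblast markers summed to 10.4 to 12.2 CPM in controls and 13.0 to 14.6 CPM in ETV4 KO, with Pdgfra alone above 1 CPM and Lum at 0 counts, and leukocyte and macrophage markers to 17.3 to 18.7 and 18.1 to 19.7 CPM, with Cd68 and Cd14 alone above 1 CPM and Adgre1 and Cd3e at 0 counts. Endothelial and adipocyte markers summed to at most 0.879 CPM in any library. Mitochondrial transcripts took 1.80% to 1.96% of counts in controls and 2.27% to 2.51% in ETV4 KO. The part that these epithelial marker and mitochondrial differences have in the differences below was not tested. In bulk RNA, fewer cells of a kind and less RNA per cell cannot be told apart.

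Lmna transcripts were abundant and slightly lower in ETV4 KO. Lmna (chromosome 3, 88480147 to 88509956, minus strand, in GRCm38, which equals mm10) had 2416, 2453 and 2414 CPM in the control libraries (in order of replicate number, here and below) and 2152, 2250 and 2178 CPM in the ETV4 KO libraries. Each ETV4 KO library lay below each control library, and the gap between the groups was 164.2 CPM. The log2 fold change was -0.15 (SE 0.030, edgeR quasi-likelihood adjusted p = 6.37e-05), so that Lmna fell by 9.67%. The average level of Lmna stood at the 99.9th percentile of all genes tested. Counts over the whole gene do not separate lamin A from lamin C, nor prelamin A from its processed form. The expressed genes in the same 10 Mb stretch of chromosome 3 had a median of -0.22 on the log2 scale, and with that median taken out Lmna was called in the other direction, at 0.071 (SE 0.030; adjusted p = 0.0368, edgeR).

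The B-type lamins went opposite ways. Lmnb1 (chromosome 18), the more abundant of the pair and a gene whose loss is a known mark of senescent cells, had 188, 193 and 185 CPM in controls and 209, 223 and 218 CPM in ETV4 KO. All 3 ETV4 KO values were above all 3 control values, and the log2 fold change was 0.20 (SE 0.034; adjusted p = 6.71e-06, edgeR). Lmnb2 (chromosome 10, 80901203 to 80918245) had 62.1, 65.7 and 62.2 CPM in controls and 55.8, 59.6 and 54.1 CPM in ETV4 KO. The groups again did not overlap, but the gap was only 2.50 CPM, and the log2 fold change was -0.17 (SE 0.045; adjusted p = 0.00164, edgeR). With the medians of their 10 Mb neighbours taken out, neither B-type lamin was called, Lmnb1 at -0.057 (edgeR adjusted p = 0.147) and Lmnb2 at -0.047 (edgeR adjusted p = 0.361).

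**Figure D1:**
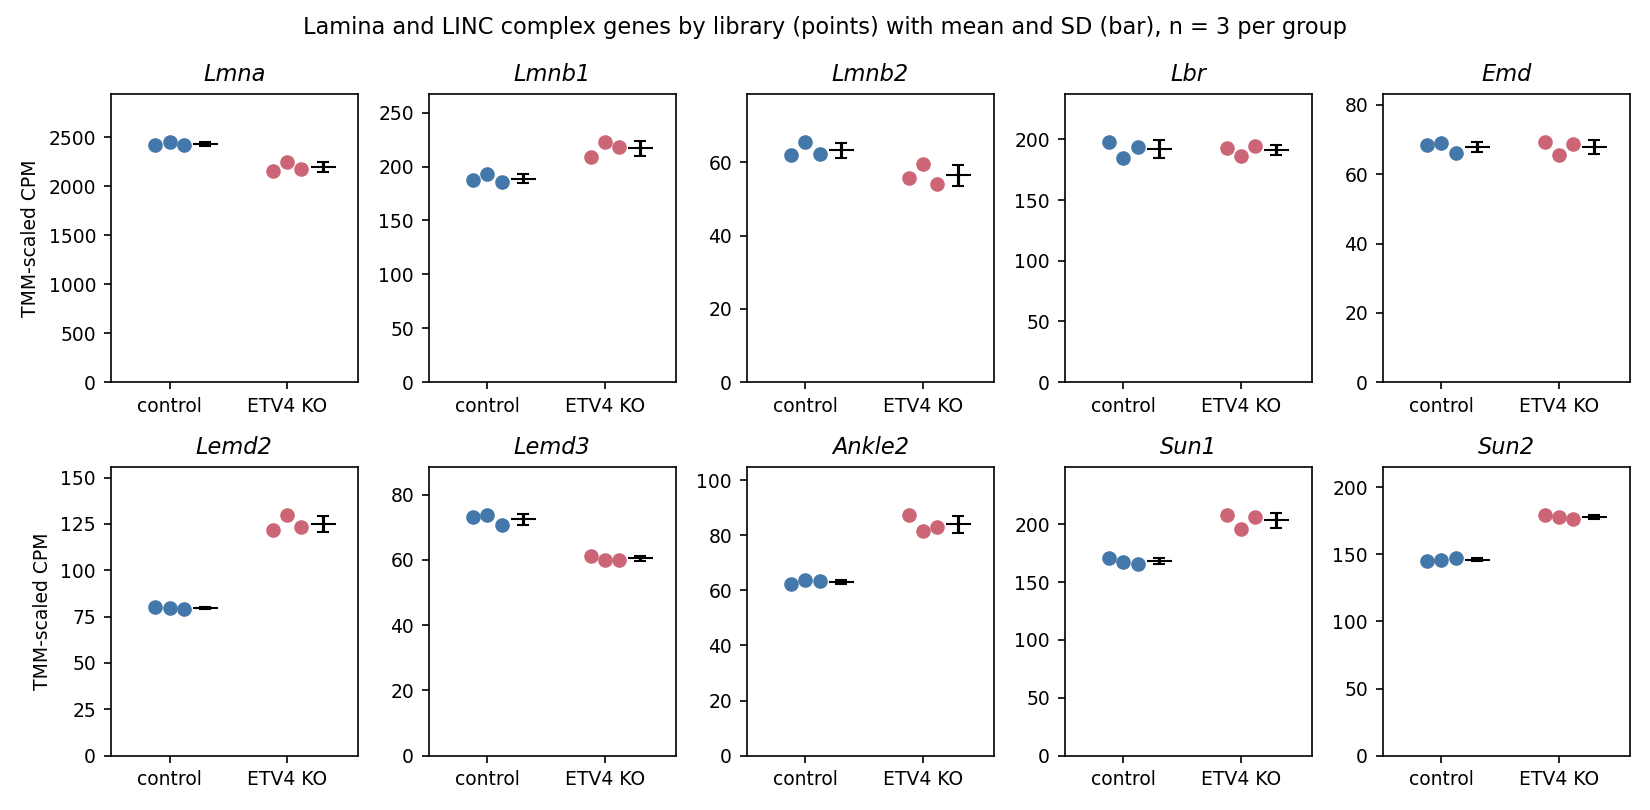
TMM-scaled CPM (y axes from 0) of the 10 genes in the 3 control and 3 ETV4 KO libraries (x axis); points are libraries, and the black mark is the mean with its SD. Control and ETV4 KO points separate in 8 panels and overlap for Lbr and Emd; Lemd2 has the largest fold of the 10, from about 80 to about 125 CPM.

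The ratio of Lmna to Lmnb1 was lower in every ETV4 KO library. Computed from read counts within a library, and so free of library scaling, it was 12.9, 12.7 and 13.0 in controls and 10.3, 10.1 and 9.98 in ETV4 KO. The 95% Clopper-Pearson intervals, which cover counting error only, ran from 12.3 to 13.4 over the controls and from 9.70 to 10.6 over ETV4 KO and did not meet. The means were 12.9 ± 0.162 and 10.1 ± 0.161 (SD, n = 3 each), a log2 difference of -0.35, and the exact two-sided permutation test gave p = 0.10, the smallest that 3 samples against 3 allow (0.30 after Benjamini-Hochberg adjustment over the 3 ratios tested). With the medians of the 10 Mb neighbours of both genes taken out, an alternative chosen after seeing the data, the log2 difference was 0.13.

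The other ratios did not separate the groups. Lmna to Lmnb2 was 38.9, 37.4 and 38.8 in controls and 38.6, 37.8 and 40.3 in ETV4 KO, a log2 difference of 0.018 that is below the SD of either group (exact permutation p = 0.60, adjusted p = 0.90). Lmna and Lmnb2 had thus nearly the same fold change. Sun1 to Sun2 was 1.18, 1.15 and 1.13 in controls and 1.16, 1.10 and 1.17 in ETV4 KO, a log2 difference of -0.0062 (exact permutation p = 0.90, adjusted p = 0.90). The ratio of Lmnb1 to Lmnb2, added as a description, had a mean of 2.98 ± 0.0403 in controls and 3.84 ± 0.168 in ETV4 KO (SD, n = 3 each). With the neighbours' medians taken out, the log2 difference was 0.12 for Lmna to Lmnb2 and -0.13 for Sun1 to Sun2, and Lmnb1 and Lmnb2 had nearly equal log2 fold changes (-0.057 and -0.047).

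**Figure D2:**
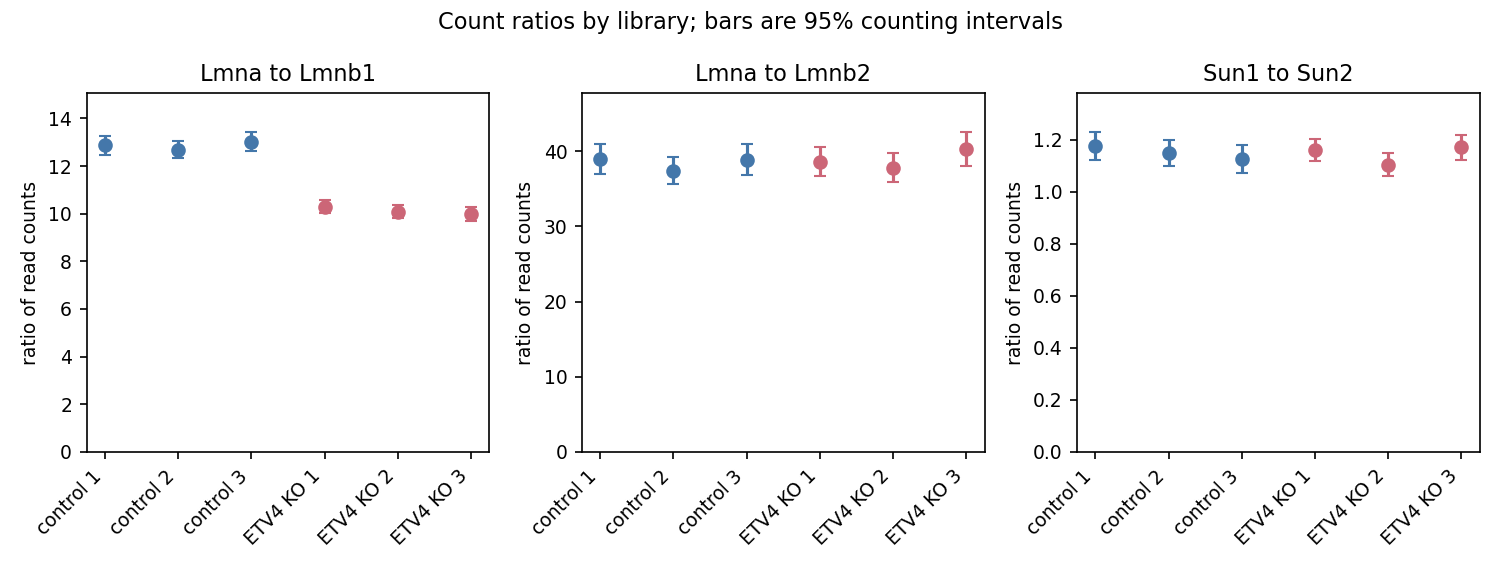
Ratio of read counts (y axes from 0) of Lmna to Lmnb1, Lmna to Lmnb2 and Sun1 to Sun2 in each library (x axis), with 95% counting intervals as bars. The 3 ETV4 KO libraries sit at 9.98 to 10.3 for Lmna to Lmnb1, below the controls at 12.7 to 13.0, while the libraries of both groups mix in the other panels.

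On a scale of CPM per kb of exon, which allows levels of different genes to be set side by side, Lmna made up 84.1% ± 0.188 of the summed lamin level in controls and 81.3% ± 0.179 in ETV4 KO (SD, n = 3 each). The share of Lmnb1 was 12.9% ± 0.134 and 15.8% ± 0.219, and that of Lmnb2 was 2.99% ± 0.0619 and 2.85% ± 0.0940. Lmnb1 was the lamin whose share was larger in ETV4 KO. The summed level of the 3 lamins was 494.4 ± 5.62 CPM per kb in controls and 462.0 ± 11.4 CPM per kb in ETV4 KO, whereas the B-type sum alone was 78.5 ± 1.82 and 86.4 ± 2.82 CPM per kb (SD, n = 3 each). Exon lengths came from GENCODE M21, which may not be the annotation behind the counts. Each is the union of all annotated exons of a gene, not the length of the transcript expressed here. Levels of different genes, and their order, therefore compare only roughly.

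Lbr and Emd showed no call. Lbr (chromosome 1, 181815335 to 181843046), the lamin B receptor, binds B-type lamins and heterochromatin protein and is also a sterol reductase. It had 198, 184 and 194 CPM in controls and 193, 186 and 194 CPM in ETV4 KO. The ETV4 KO values lay within the control range, with a log2 fold change of -0.0055 (SE 0.035; adjusted p = 0.894, edgeR). Emd (chromosome X, 74254687 to 74261548) encodes emerin, a LEM-domain protein whose loss causes a muscular dystrophy. It had 68.5, 68.9 and 66.2 CPM in controls and 69.4, 65.6 and 68.8 CPM in ETV4 KO, with a log2 fold change of 0.0015 (SE 0.041; adjusted p = 0.977, edgeR). The ETV4 KO values of Emd spanned the control range. The signs of both depend on the scaling and on single libraries. With the medians of their neighbours taken out, Lbr was called higher at 0.13 (edgeR adjusted p = 0.00225) and Emd lower at -0.13 (edgeR adjusted p = 0.00561).

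The other LEM-domain genes split. LEM domains bind BAF, a small DNA-bridging protein that helps to rebuild the envelope after mitosis. Lemd2 (chromosome 17, 27189600 to 27204469), which recruits membrane-sealing factors to the reforming envelope, had 80.1, 79.7 and 78.9 CPM in controls and 122, 130 and 123 CPM in ETV4 KO. Every ETV4 KO value exceeded the highest control value by at least 41.6 CPM, and the log2 fold change was 0.65 (SE 0.038; adjusted p = 1.7e-15, edgeR). The genes around it on chromosome 17 had a median of 0.36, and with that taken out Lemd2 had 0.29 (SE 0.037; adjusted p = 9.75e-08, edgeR).

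Ankle2 (chromosome 5, 110231004 to 110256651), which brings BAF to its dephosphorylated state at mitotic exit, had 62.3, 63.7 and 63.3 CPM in controls and 87.3, 81.4 and 83.1 CPM in ETV4 KO. The groups were 17.7 CPM apart, with a log2 fold change of 0.41 (SE 0.041; adjusted p = 2.72e-10, edgeR) and of 0.21 (edgeR adjusted p = 3.57e-05) with the median of its neighbours taken out. Lemd3 (chromosome 10, 120923413 to 120979332), known as MAN1, binds receptor-regulated SMADs and restrains TGF-beta and BMP signalling. It had 73.2, 73.7 and 70.6 CPM in controls and 61.3, 60.1 and 60.0 CPM in ETV4 KO. These groups did not overlap either, and the log2 fold change was -0.26 (SE 0.041; adjusted p = 1.38e-06, edgeR) and -0.15 (edgeR adjusted p = 0.00205) with the median of its neighbours taken out. Counts of Lemd2 and Lemd3 were nearly equal in controls, a ratio of 1.10 ± 0.0189, and the ratio was 2.07 ± 0.0870 in ETV4 KO (SD, n = 3 each), given as a description since the pair was chosen after its values were seen.

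Both SUN genes rose by nearly the same amount. Sun1 (chromosome 5, 139200637 to 139249840) had 171, 167 and 166 CPM in controls and 208, 196 and 206 CPM in ETV4 KO, a log2 fold change of 0.28 (SE 0.034; adjusted p = 2.41e-08, edgeR). Sun2 (chromosome 15, 79724070 to 79742536) had 145, 146 and 148 CPM in controls and 179, 178 and 176 CPM in ETV4 KO, a log2 fold change of 0.28 (SE 0.033; adjusted p = 9.82e-09, edgeR). For each gene all ETV4 KO libraries lay above all controls, and Sun2 had the tightest groups of the 10 in ETV4 KO, with a coefficient of variation of 0.864%. The genes differ in their neighbours: with the neighbours' medians taken out (0.23 for Sun1 and 0.10 for Sun2), Sun1 was not called, at 0.045 (edgeR adjusted p = 0.253), and Sun2 was, at 0.18 (edgeR adjusted p = 2.68e-05).

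Nesprins, the partners of SUN proteins in the outer membrane, gave 4 tested genes. The 8 genes listed include the testis-restricted SUN genes and other KASH proteins. Of the 4 nesprins 3 rose and 1 fell, where 35% of all genes tested were called higher and 36% lower. The median log2 fold change was 0.20 against -0.0038 over all genes tested (0.12 and -0.018 with the neighbours' medians taken out). Syne3 (nesprin-3, which binds plectin and so intermediate filaments) went from 88.2 ± 1.06 to 141.7 ± 4.77 CPM (mean ± SD, n = 3), with a log2 fold change of 0.69 (SE 0.037; adjusted p = 2.95e-16, edgeR). The giant actin-binding nesprin gene Syne2 rose by 0.24 (SE 0.043) and had 0.12 with the median of its neighbours taken out. Syne4, the nesprin that binds kinesin in epithelial cells, fell from 6.63 ± 0.398 to 3.70 ± 0.184 CPM (mean ± SD, n = 3), with a log2 fold change of -0.85 (SE 0.12; adjusted p = 2.24e-07, edgeR).

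In order of CPM per kb of exon, the control libraries ran from Lmna at 415.8 ± 3.82 through Lmnb1 at 63.7 ± 1.36, Lbr at 40.4 ± 1.49, Sun2 at 27.0 ± 0.227, Emd at 27.0 ± 0.589, Sun1 at 22.1 ± 0.325, Lemd2 at 16.3 ± 0.126, Lemd3 at 15.1 ± 0.352 and Lmnb2 at 14.8 ± 0.474 to Ankle2 at 11.4 ± 0.133 (mean ± SD, n = 3). Neighbours in this order did not overlap between libraries, except Sun2 with Emd and Lemd3 with Lmnb2. In ETV4 KO, Lemd2 at 25.6 ± 0.878 CPM per kb reached the levels of Sun1 (26.8 ± 0.851) and overlapped it, and Ankle2 at 15.2 ± 0.553 stood above Lmnb2 at 13.2 ± 0.656 and Lemd3 at 12.6 ± 0.146, so that Ankle2 moved from the tenth place to the eighth and Lemd3 from the eighth to the tenth. Lmnb2 and Lemd3 overlapped in ETV4 KO as in controls, so that their order relative to each other was not resolved in either group. Emd and Sun1 also overlapped in ETV4 KO. Within a group the libraries were close, with coefficients of variation of 0.771% to 3.70% in controls and 0.864% to 4.98% in ETV4 KO.

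**Figure D3:**
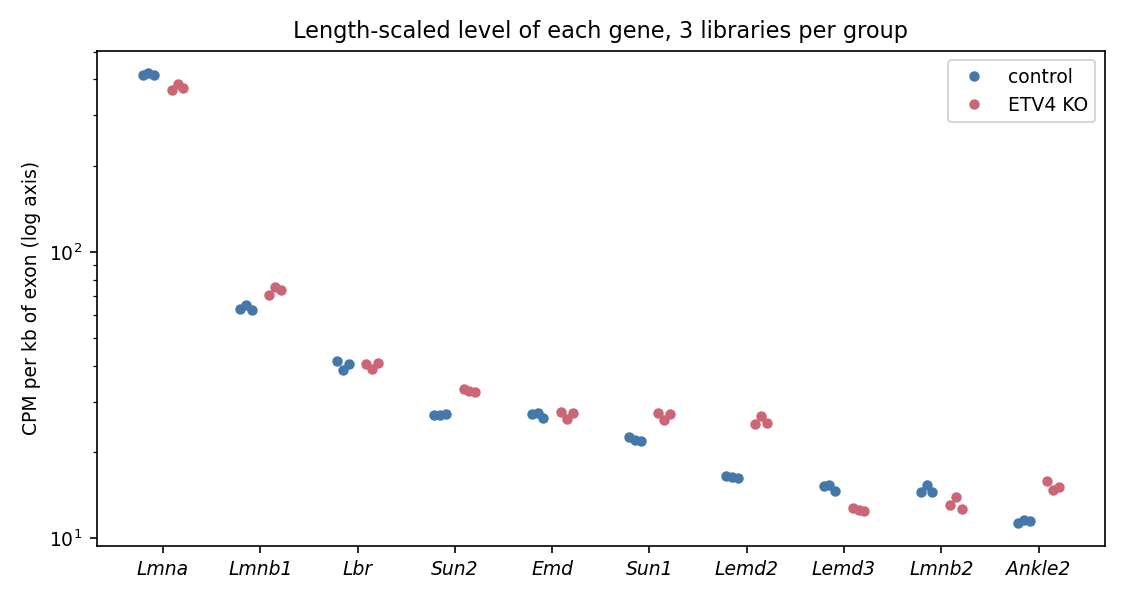
Level of each gene in CPM per kb of exon (log axis), ordered by the control mean, with 3 control and 3 ETV4 KO libraries as points. Lmna stands far above the others in both groups, and Lemd2 and Ankle2 move up towards the genes on their left.

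Each of the 8 called genes moved in the direction of the genes around it. The other expressed genes in the 10 Mb bin of each gene (13 to 122 genes) had a median difference with the same sign in 8 of 8; for comparison, 75.9% of all called genes with a position shared the sign of their bin. The medians were -0.22 for Lmna, 0.26 for Lmnb1, -0.12 for Lmnb2, 0.23 for Sun1, 0.10 for Sun2, 0.36 for Lemd2, -0.11 for Lemd3 and 0.20 for Ankle2, and -0.13 and 0.14 for Lbr and Emd. None of the 10 fell outside the 5th to 95th percentile of its bin, where 2781 of 11961 tested genes with a position did. Those 11961 were not matched to the 10 in level. They include genes with a log2 CPM of 3 or less, which the bin ranges leave out. With the bin medians taken out 7 of the 10 were called, 5 higher and 2 lower, against 64.8% of all genes tested, 30.5% higher and 34.2% lower. Sun2, Lemd2, Lemd3 and Ankle2 kept their direction and their call with the bin median taken out, a step that treats each median as known, without its own error. The part of chromosome position in these differences was not tested beyond this.

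**Figure D4:**
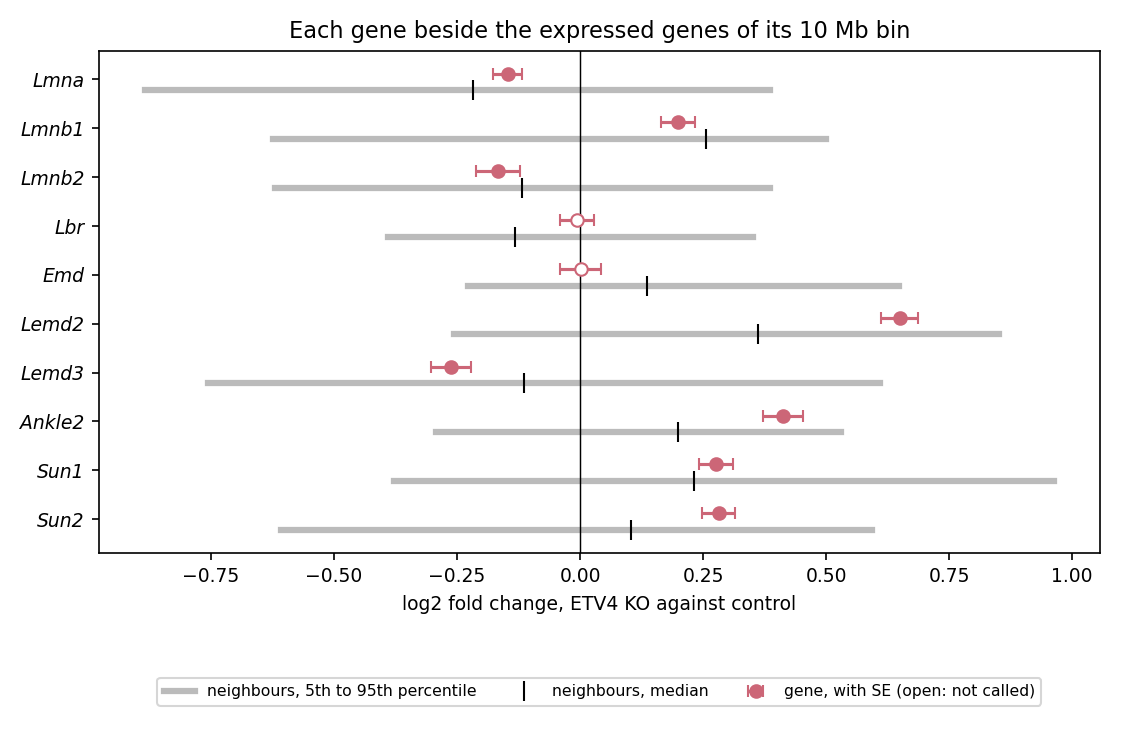
Log2 fold change of each of the 10 genes (points with SE, open where not called), beside the median (tick) and the 5th to 95th percentile (grey bar) of the expressed genes in its 10 Mb bin. Each filled point lies on the same side of 0 as its tick and within the grey bar; Lemd2 lies farthest right, at 0.65 against a tick at 0.36.

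Promoter sequences are shown because ETV4 is an ETS factor, a family whose members bind a GGAA core. RefSeq windows from 250 bases before to 50 after a start (GRCm38.p6) were found for 8 of the 10 genes, 11 windows in all; Lemd2 and Lmnb1 had none. The letters CCGGAA were searched on both strands, and all matches are in capitals. They were present for 4 of the 8 genes: the 3 genes that fell, and Ankle2. Sun1, Sun2, Emd and Lbr held no match in these windows. Among tested genes with a window 32.8% held a match, with 31.1% of those called higher, 32.9% of those called lower and 34.9% of those not called. The longer CCGGAAGT, which contains the shorter motif, was found for Lmna and Lemd3, against 9.75% of tested genes with a window. All Lmna matches lay in its window farther inside the gene, at 88493263 to 88493562, where the minus-strand gene begins at 88509956. The other Lmna window, at 88503303 to 88503602, held no match. Which start the counted Lmna transcripts used was not tested. A match is a description of letters, not a binding site, and no binding was measured here. The 4 windows, 5′ to 3′ on the strand of the gene, are these:
Lmna, chr3:88493263-88493562, minus strand (1 of 2 windows; the other held no match): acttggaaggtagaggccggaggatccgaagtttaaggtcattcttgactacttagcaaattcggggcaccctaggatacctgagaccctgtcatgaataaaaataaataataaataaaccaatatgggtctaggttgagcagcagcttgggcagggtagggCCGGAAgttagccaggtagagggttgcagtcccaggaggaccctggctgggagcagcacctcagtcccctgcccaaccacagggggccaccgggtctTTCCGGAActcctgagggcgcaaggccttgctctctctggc
Lmnb2, chr10:80918196-80918495, minus strand (1 of 2 windows; the other held no match): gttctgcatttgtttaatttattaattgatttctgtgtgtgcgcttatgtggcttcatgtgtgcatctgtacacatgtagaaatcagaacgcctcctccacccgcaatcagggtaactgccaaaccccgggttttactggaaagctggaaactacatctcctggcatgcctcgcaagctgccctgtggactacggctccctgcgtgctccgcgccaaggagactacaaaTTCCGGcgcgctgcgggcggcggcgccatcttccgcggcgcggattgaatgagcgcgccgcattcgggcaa
Lemd3, chr10:120979281-120979580, minus strand: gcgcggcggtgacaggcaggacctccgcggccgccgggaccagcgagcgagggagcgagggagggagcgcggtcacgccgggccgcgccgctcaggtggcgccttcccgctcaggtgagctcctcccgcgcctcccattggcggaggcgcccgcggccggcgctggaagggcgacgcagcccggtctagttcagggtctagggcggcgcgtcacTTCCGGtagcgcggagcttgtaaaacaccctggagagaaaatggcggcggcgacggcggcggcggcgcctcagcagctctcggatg
Ankle2, chr5:110230754-110231053, plus strand: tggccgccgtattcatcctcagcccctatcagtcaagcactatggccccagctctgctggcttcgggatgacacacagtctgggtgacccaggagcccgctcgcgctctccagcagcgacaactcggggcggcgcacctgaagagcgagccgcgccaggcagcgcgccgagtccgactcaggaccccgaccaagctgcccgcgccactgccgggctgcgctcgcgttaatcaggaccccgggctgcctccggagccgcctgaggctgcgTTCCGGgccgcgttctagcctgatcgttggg
The Lmna window held 3 matches, of which a pair on opposite strands overlapped. The windows of Lmnb2, Lemd3 and Ankle2 held 1 each.

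Other envelope genes, in lists of related function, also went both ways. The counts below stand beside 35% higher and 36% lower over all genes tested, and beside 30.5% and 34.2% with the neighbours' medians taken out. Of 13 tested inner membrane and lamina-binding genes 8 rose and 3 fell, with a median log2 fold change of 0.14; with the neighbours' medians taken out 8 were called higher and 3 lower (median 0.18). Tmem120a rose by 0.56 (SE 0.045; 0.33 with the median of its neighbours taken out) and Nrm, which encodes nurim, by 0.48 (SE 0.071; 0.19 with the median of its neighbours taken out), while Tmem201 (SAMP1, a LINC-associated protein) had -0.33 (SE 0.038; -0.21 with that median taken out) and Tor1aip2, an activator of torsins, -0.22 (SE 0.039). The BAF gene Banf1 and the LEM gene Tmpo, both named after their values were seen, had 0.28 (SE 0.042; adjusted p = 7.72e-07, edgeR) and 0.016 (SE 0.031; adjusted p = 0.648, edgeR). Of 5 torsins, ATPases of the envelope lumen, 4 rose and 0 fell (median 0.14), led by Tor2a at 0.46 (SE 0.070; 0.29 with the median of its neighbours taken out) and Tor1b at 0.15 (SE 0.044); 1 was called with the neighbours' medians taken out, where Tor1b had -0.021.

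Genes that process lamins were mixed. Of 6 tested, 1 rose and 3 fell, with a median of -0.0020; with the neighbours' medians taken out 1 was called higher and 2 lower (median 0.014). Zmpste24, the protease that matures prelamin A, rose by 0.12 (SE 0.039), and had 0.37 with the median of its neighbours taken out. Fnta, the shared alpha subunit of the prenyltransferases, had -0.16 (SE 0.037). Narf, whose product binds prenylated prelamin A, went from 44.5 ± 2.34 to 22.1 ± 0.836 CPM (mean ± SD, n = 3), with a fold of 0.499 (SE 0.055 on the log2 scale, edgeR adjusted p = 5.38e-16); it lies on chromosome 11 and had -0.49 with the median of its neighbours taken out.

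Envelope sealing genes and BAF kinases rose in 5 and fell in 8 of 13 (median -0.14), and 4 and 7 were called with the neighbours' medians taken out (median -0.093). Spast, a microtubule-severing enzyme recruited to the closing envelope, rose by 0.52 (SE 0.042; 0.10 with the median of its neighbours taken out) and the ESCRT ATPase Vps4a by 0.31 (SE 0.036), while Cc2d1b had -0.45 (SE 0.037) and Ist1 -0.31 (SE 0.037; -0.18 with the median of its neighbours taken out). Chmp7, the ESCRT subunit that LEM2 recruits, was named after its value was seen and had 0.27 (SE 0.049; adjusted p = 1.15e-05, edgeR). The neighbours of Chmp7 had a median of 0.16. Among the other CHMP genes listed, more were called lower than higher. Nuclear pore genes rose in 15 and fell in 6 of 28 (median 0.14), and 14 and 4 were called with the neighbours' medians taken out (median 0.079). Named members were the outer-ring gene Nup160 at 0.51 (SE 0.041), the membrane anchor Ndc1 at 0.44 (SE 0.040), Nup88 at -0.73 (SE 0.037) and Nup85 at -0.30 (SE 0.036). Nup88 and Nup85 lie on chromosome 11; with the medians of their neighbours taken out they had -0.32 and 0.19, both called.

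Late cholesterol synthesis genes, where Lbr shares a step with Tm7sf2, rose in 2 and fell in 7 of 9 (median -0.14), and 1 and 6 were called with the neighbours' medians taken out (median -0.24). Tm7sf2, the other sterol reductase for that step, went from 11.8 ± 1.28 to 5.70 ± 0.133 CPM (mean ± SD, n = 3), with a log2 fold change of -1.05 (SE 0.098; adjusted p = 8.66e-11, edgeR), while Lbr itself was not called. Cyp51 rose by 0.11 (SE 0.033) and Ebp by 1.06 (SE 0.061). With the medians of their neighbours taken out Ebp, on chromosome X, had 0.15 and Cyp51 -0.066. Heterochromatin partners rose in 6 and fell in 3 of 10 (median 0.16), and 4 and 2 were called with the neighbours' medians taken out (median 0.025). The histone methyltransferase genes Suv39h1 and Suv39h2 rose by 1.09 (SE 0.059) and 0.48 (SE 0.064), while Cbx1 (heterochromatin protein 1 beta) had -0.51 (SE 0.038) and the methyltransferase gene Setdb1 -0.31 (SE 0.040). With the medians of their neighbours taken out Suv39h1 (chromosome X), Cbx1 (chromosome 11) and Setdb1 (chromosome 3) had 0.18, -0.15 and -0.098.

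Proliferation genes were examined beside the lamins because the envelope is taken apart and rebuilt at each division. Of 17 tested, 8 rose and 6 fell, with a median of 0.045; with the neighbours' medians taken out 13 rose and 2 fell, with a median of 0.16. Mki67 rose by 0.74 (SE 0.042) and the checkpoint kinase Bub1 by 0.46 (SE 0.040; 0.29 with the median of its neighbours taken out), while cyclin B2 (Ccnb2) had -0.27 (SE 0.035; -0.16 with that median taken out) and Aurkb, on chromosome 11, had -0.22 (SE 0.037; 0.14 with that median taken out). The part that proliferation has in the lamin and LEM differences was not tested. The context genes named singly as risen, or given singly with a negative log2 fold change, had edgeR adjusted p-values of at most 0.0052. This bound is for the fit without the neighbours' medians taken out. Genes only counted in a list as risen or fallen had edgeR adjusted p-values under 0.05.

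**Figure D5:**
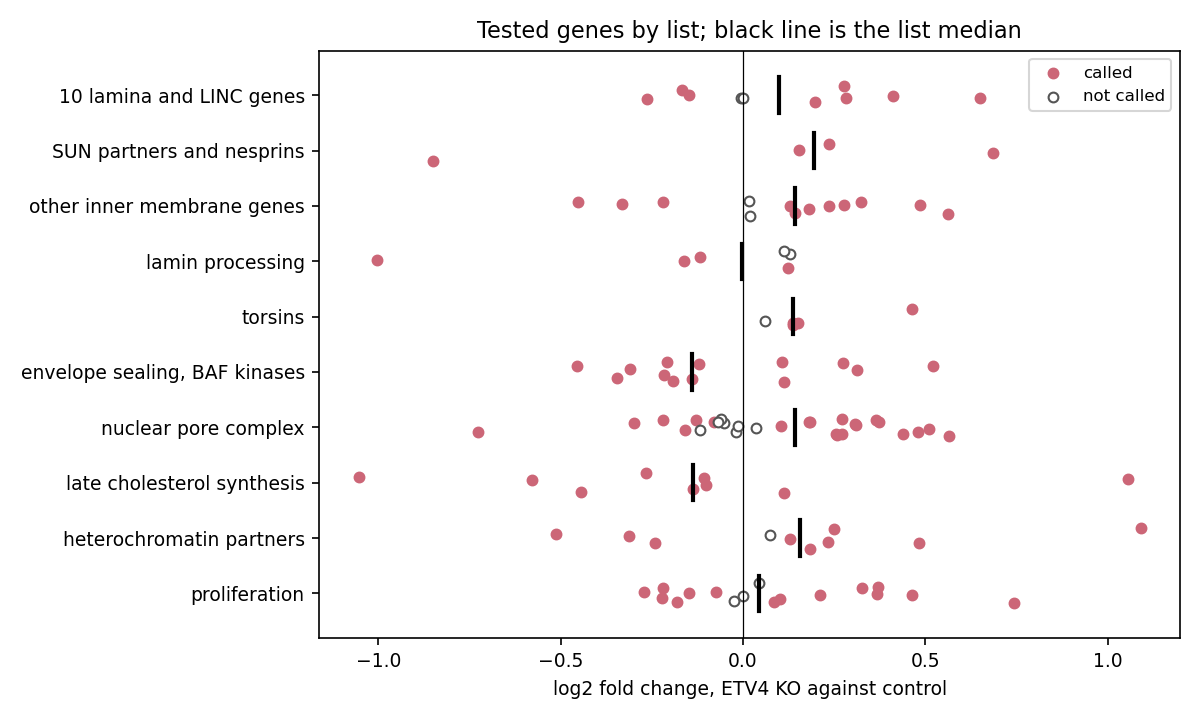
Log2 fold change (x axis) of the tested genes of each list (y axis); filled points were called at an edgeR adjusted p under 0.05, open points were not, and the black line is the list median. Medians lie between -0.14 and 0.20, and each list but the torsins holds called genes on both sides of 0.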

How the data were processed

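Poly(A) RNA from 3 control and 3 ETV4 KO samples of 4T1 cells was sequenced, and samples were grouped by their titles. The deposited values are raw counts by gene symbol, in 1 table and without normalization (unit taken from the values, whole numbers with a different total in each library). Per the submitters' processing notes, the tools were featureCounts, STAR 2.7.9a, FastQC 0.11.9 and R 4.1.1, with the builds hg38 and mm10 named in no order; annotation, strand setting and multi-mapping rule: not given in the sources used here. In GENCODE M21, exons of 6 of the 10 genes overlap another annotated gene, and the overlapping genes that the table lists had at most 2.03% of the gene's counts.

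Counts were tested with edgeR 4.0.16 (limma 3.58.1, R 4.3.3): TMM factors after filterByExpr by group (counts of at least 10, totals of at least 15), then glmQLFit and glmQLFTest with no term but the group, and Benjamini-Hochberg adjustment over 12076 genes. The SE is the absolute log2 fold change over the square root of F. Ratios were compared by an exact permutation test. Steps were tested on simulated counts. The named genes are the 10 members, Etv4, and up to 2 called genes per direction with the smallest adjusted p in each of 9 context lists; 1 gene that the rule names is not reported here. Banf1, Tmpo and Chmp7 are named outside the rule, after their values were seen, as are marker genes. The members and lists were chosen with earlier results of these data known. Positions came from GENCODE M21 by symbol (30416 of 31017 symbols). Neighbours are the genes of a 10 Mb bin with an edgeR log2 CPM above 3 (the chromosome where fewer than 10), whose median log2 fold change served as an offset in ETV4 KO libraries. Further alternatives were RLE and upper-quartile factors, library size only, DESeq2 1.42.0, limma-voom, other low-count filters, a replicate block and each sample left out in turn.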

Additional observations from a re-analysis of the deposited data

How the results depend on the processing

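In the 15 alternatives to the test of single genes, 8 of the 10 genes were called, 5 higher and 3 lower, except with the 10 Mb bin medians taken out, where 7 were called, 5 higher (Lmna, Lbr, Sun2, Lemd2 and Ankle2) and 2 lower (Emd and Lemd3). The share of all genes called ranged from 47.6% with no low-count filter to 73.6% over these alternatives. With the bin medians taken out Lmna reversed to 0.071, Lmnb1 to -0.057, Lbr to 0.13 and Emd to -0.13, and of the context genes Tor1b to -0.021, Nup85 to 0.19, Cyp51 to -0.066 and Aurkb to 0.14; the log2 ratio difference of Lmna to Lmnb1 reversed to 0.13, that of Lmna to Lmnb2 moved to 0.12 and that of Sun1 to Sun2 to -0.13. Emd and Lbr, near 0, also changed sign elsewhere: Emd had -0.036 with upper-quartile factors, -0.050 with library size only and -0.0054 where CPM had to reach 1 in 3 libraries, and Lbr had 0.0037 with no low-count filter. Leaving out each sample in turn gave -0.016 to 0.028 for Emd, -0.036 to 0.017 for Lbr, -0.36 to -0.34 for the log2 ratio difference of Lmna to Lmnb1, -0.0074 to 0.039 for Lmna to Lmnb2 and -0.023 to 0.020 for Sun1 to Sun2. Zmpste24 and Cyp51 lost their calls with library size only (edgeR adjusted p = 0.0929 and 0.0909). Deviations of same-numbered samples had correlations across genes of 0.071, 0.071 and 0.019, and those of differently numbered samples ran from -0.086 to 0.020. These small values do not settle whether replicate numbers pair the samples. With a replicate block 8 of the 10 genes and 8882 of all genes were called, against 8582 without it, and the log2 ratio difference of Lmna to Lmnb1 was -0.35 (exact sign-flip p = 0.25, the smallest that 3 pairs allow). Each of the 10 genes had at least 1293 counts in every library.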
